A study of Homo sapiens with 12 samples.

Results

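A375, an established human melanoma cell line that carries an activating BRAF mutation, was compared with and without the BET bromodomain inhibitor JQ1 in cells whose MAPKAPK2 gene had been knocked out with CRISPR/Cas9. The comparison held 6 of the 12 RNA-seq libraries of the series: 3 replicates of knockout cells given 500 nM JQ1 and 3 of knockout cells given the solvent DMSO, both for 48 h. They were chosen by their genotype and treatment labels. All 6 libraries share the MAPKAPK2 knockout, so this contrast measures the drug and not the deletion. The other 6 libraries are wild-type A375 cells under the same doses and time; they entered the fit, where they share in the estimate of the spread, and were used to test whether a response differed between genotypes. With the 6 knockout libraries alone 5715 genes were called in place of 7472. The labels do not say whether the knockout is 1 clone or a pool, nor whether replicates are separate cultures, so the p-values measure the spread between these samples, which may be technical. The series asks how losing MAPKAPK2 bears on the response to BET inhibitors.

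BET proteins, BRD2 and BRD3 among them, bind acetylated histones through their bromodomains and help to release paused RNA polymerase II, in part through the kinase P-TEFb. JQ1 occupies the bromodomain pockets and displaces these proteins from chromatin, so genes that lean on BET-rich enhancers tend to lose transcription, while genes of P-TEFb control and some histone genes are known to go up. MAPKAPK2 encodes MK2, a kinase activated by the stress kinase p38; it is known for phosphorylating the heat shock protein HSP27 (gene HSPB1) and for stabilising the mRNAs of cytokines. In melanoma, BET inhibition is known for slowing the cell cycle and for lowering inflammatory gene expression.

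MAPKAPK2 itself read 11.1, 13.2 and 13 CPM in DMSO and 14.8, 12.6 and 15.7 CPM with JQ1, where CPM stands for counts per 1000000 after TMM scaling. The wild-type libraries read 87.9 to 119.7 CPM, so every knockout library lay far below every wild-type one, in the order the labels give. Within the knockout its difference with JQ1 was not past the threshold (log2 fold change 0.22, SE 0.09, adjusted p 0.0724). Of 12 melanoma and melanocyte markers 7 reached 1 CPM, and the pigment genes PMEL, TYR, TYRP1, DCT and MLANA were under it. Markers of other cell types were low, except that 3 of 6 epithelial ones reached 1 CPM: their sum was 159 to 171 CPM in DMSO and 144 to 159 CPM with JQ1. Fibroblast markers summed to 17.6 to 18.8 CPM in DMSO and 9.85 to 12.2 CPM with JQ1, with 3 of 7 at 1 CPM. The endothelial, keratinocyte and leukocyte lists each had 1 marker at 1 CPM, and the leukocyte sum was at most 4.18 CPM.

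The 6 libraries held 25316899 to 34139142 estimated counts each. On the first principal component (51.2% of the variance) all 3 JQ1 libraries lay apart from all 3 DMSO libraries, and on the second (16%) JQ1 replicate 3 lay at 47 against -25.6 and -24 for the other pair. A chi-square test of the counts gave 4.62 per degree of freedom between JQ1 replicates 1 and 2, but 23.8 and 25.1 for replicate 3 against them, where sampling noise alone gives 1. The way in which replicate 3 differed followed the base composition of the transcripts. The 11095 genes that averaged 5 CPM or more were put in 4 equal groups by GC content. The log2 CPM of replicate 3 minus the mean of replicates 1 and 2 had a median of -0.27 in the lowest group and 0.31 in the highest. Pearson's r of that deviation with GC content, taken across genes that are no independent replicates, was 0.73; the other 5 knockout libraries had r from -0.58 to 0.35. In replicate 3, 7.56% of these genes lay more than 0.5 log2 units from the mean of the other pair, against 0.64% to 1.95% in the other knockout libraries. The counts for the gene groups below are given with and without this library.

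**Figure D1:**
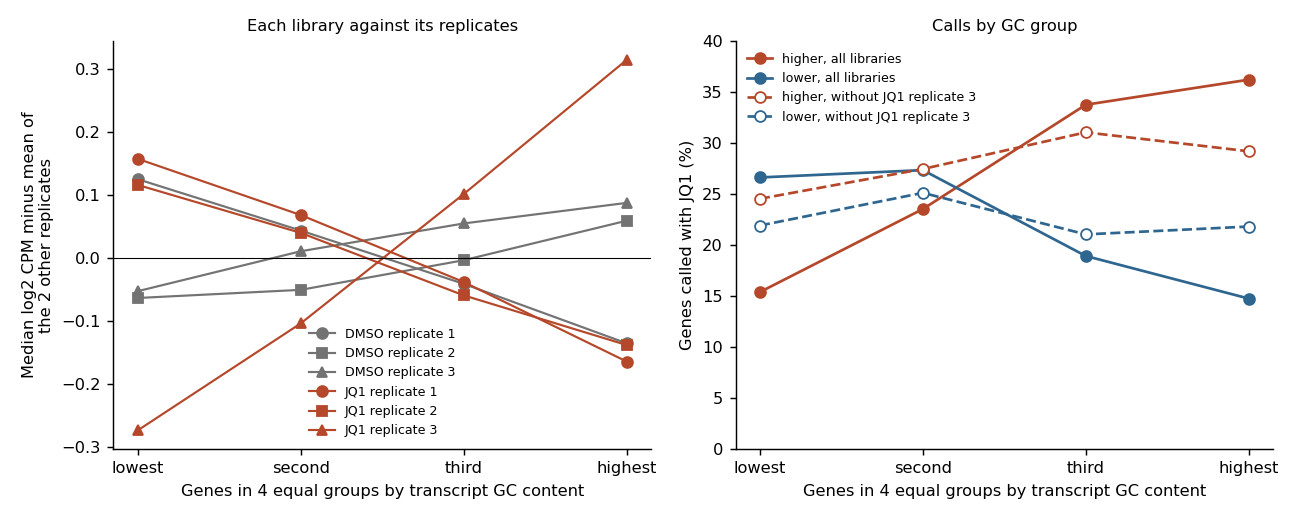
Left: median log2 CPM of each knockout library minus the mean of the other 2 replicates of its group (y axis), in 4 equal groups of genes by transcript GC content (x axis), grey for DMSO and red for JQ1; JQ1 replicate 3 runs from -0.27 to 0.31 and the medians of the other 5 libraries lie between -0.17 and 0.16. Right: percentage of genes in each group called higher (red) or lower (blue) with JQ1, solid with all libraries and dashed without JQ1 replicate 3; the dashed lines are flatter than the solid ones.

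By the quasi-likelihood test of edgeR, adjusted by Benjamini-Hochberg and the source of every adjusted p below, 7472 of 21698 tested genes passed 0.05. These are 34.4% of tested genes: 16.7% higher with JQ1 (3616 genes) and 17.8% lower (3856 genes). Of 14152 protein-coding genes 22.4% were higher and 22.2% lower. Counts for lists of protein-coding genes are best read beside these larger shares. Large changes went mostly down, since 1233 of the 1609 called genes that moved by at least 1 on the log2 scale were lower. Without JQ1 replicate 3 the calls numbered 7481 of 22273 genes tested (33.6%: 16.2% higher and 17.4% lower), and 6429 of the calls (86% of the 7472 and 85.9% of the 7481) were shared with the same direction. No called gene tested in both fits changed sign. In 9184 tested genes (42.3%) the JQ1 libraries did not overlap the DMSO libraries, so such a gap in a named gene is common here. The balance of directions hung on the scaling: with library totals in place of TMM, 2409 genes were higher and 5250 lower, and the median of all genes shifted by -0.11. The GC slope of replicate 3 showed in the calls. With all libraries 15.4% of the lowest GC group and 36.2% of the highest were called higher, and without replicate 3 24.6% and 29.2%.

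**Figure D2:**
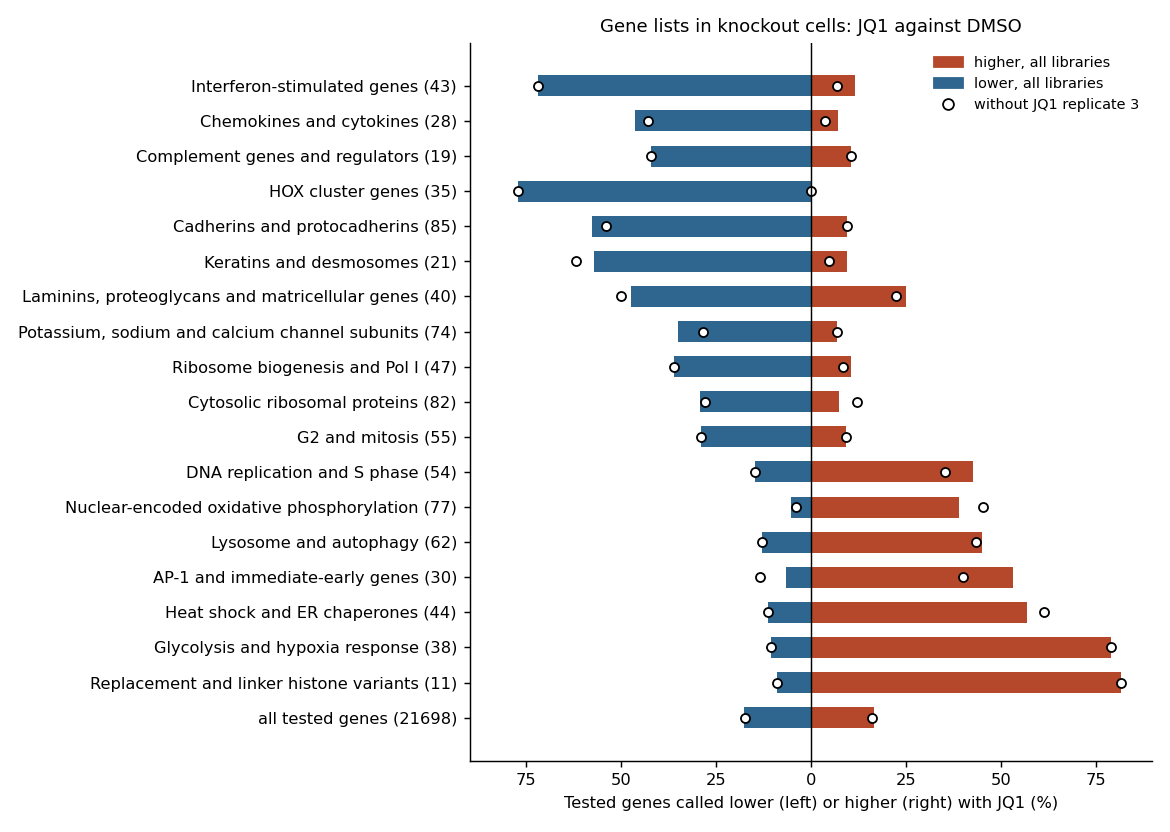
Percentage of the tested genes of each list called higher (red, right) or lower (blue, left) with JQ1 in knockout cells, with the number of genes tested in brackets; open circles give the percentages without JQ1 replicate 3. HOX and interferon-stimulated genes lie furthest to the left, replacement histone and glycolysis genes furthest to the right, and the circles lie near the bar ends for most lists.

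Several genes close to BET and P-TEFb function rose, while most of that list did not pass. HEXIM1, which holds P-TEFb inactive within the 7SK particle and is used as a marker of BET inhibitor action, read 89.1, 91.2 and 95.1 CPM in DMSO and 153, 147 and 174 CPM with JQ1 (log2 fold change 0.78, SE 0.06, adjusted p 3.92e-07). H1F0, the replacement linker histone, read 210.5, 209 and 208 CPM in DMSO and 442, 428 and 508 CPM with JQ1 (log2 fold change 1.14, SE 0.06, adjusted p 3.44e-09). In both genes every JQ1 library lay above every DMSO library, with JQ1 replicate 3 the highest. BRD2 rose (0.33, adjusted p 0.00296), as did the P-TEFb kinase CDK9 (0.50, adjusted p 0.00257) and the elongation factor ELL2 (0.52, adjusted p 0.000601). BRD3 did not pass: it had a log2 fold change of 0.02 (adjusted p 0.88), with -0.07 without JQ1 replicate 3. RN7SK, the RNA of the 7SK particle, did not pass (0.17, adjusted p 0.0561). Of the 18 tested genes of the list of BET proteins and P-TEFb with 7SK, 7 were higher and 1 lower, and their median log2 fold change was 0.21 beside -0.0035 over all tested genes. Without replicate 3 there were 6 higher, all among the 7, and 1 lower, which was another gene; none was lower without any 1 of the DMSO libraries or without JQ1 replicate 2. With library totals 5 were higher and 3 lower.

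Replacement histone variants, which are made outside S phase, rose together: 9 of 11 tested were higher and 1 lower, with a median of 0.53, and the same 10 were called in the same directions without replicate 3. H2AFV (an H2A.Z gene) read 84.4, 83.6 and 88.8 CPM in DMSO and 151, 153 and 144 CPM with JQ1 (0.80, adjusted p 8.01e-08) and H3F3B (histone H3.3) rose by 0.59 (adjusted p 2.35e-06). H2AFY2, a macroH2A gene, was the exception and fell (-1.35, adjusted p 2.96e-06). The clustered histone genes that are made in S phase were split, with 19 of 62 higher and 5 lower (17 and 5 without replicate 3). HIST1H4C rose (0.49, adjusted p 1.62e-05) while HIST1H4I (-0.91, adjusted p 2.15e-06) and HIST1H2AL (-0.70, adjusted p 1.42e-05) fell. With library totals this list came to 12 higher and 12 lower, so its direction rests on the scaling; these near-identical genes can also share reads.

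MYC, the oncogenic transcription factor that BET inhibitors are best known for lowering in blood cancers, was low in these cells. It read 13.8, 15.6 and 15.3 CPM in DMSO and 11.6, 10.7 and 14.5 CPM with JQ1 (log2 fold change -0.27, SE 0.11, adjusted p 0.0601). JQ1 replicate 3 overlapped the DMSO range, and without it MYC passed (-0.41, adjusted p 0.00247). Among its partners MXD1, a MAX-binding repressor, rose (0.59, adjusted p 5.98e-05) and MXI1 fell (-0.38, adjusted p 0.000107). The MYC, MAX and MXD list is best read beside 22.4% higher and 22.2% lower of protein-coding genes. It had 2 of 12 tested genes higher (16.7%, the same as all tested genes) and 4 lower (33.3%). Without replicate 3 there were 2 and 5, and without DMSO replicate 1 there was 1 higher.

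Interferon-stimulated genes, which encode antiviral proteins and are switched on by interferon receptors, fell in knockout cells given JQ1. Of 51 listed genes 43 were tested, 31 were lower and 5 higher, a share of 72.1% lower beside 17.8% of all tested genes, and the list median was -0.79. Without JQ1 replicate 3, 31 were lower and 3 higher, and 29 of the lower calls were the same genes; the higher count was also 3 without DMSO replicate 1. OAS2, an enzyme that makes the activator of the RNA-degrading RNase L, read 7.37, 6.73 and 7.44 CPM in DMSO and 0.876, 0.933 and 0.855 CPM with JQ1 (log2 fold change -3.01, SE 0.13, adjusted p 7.03e-10). IFITM1, a membrane protein that blocks virus entry, read 4.42, 3.67 and 4.32 CPM in DMSO and 0.343, 0.527 and 0.443 CPM with JQ1 (log2 fold change -3.23, SE 0.19, adjusted p 1.12e-08). OAS3 read 59.9, 63.5 and 66.3 CPM in DMSO and 28.4, 30.3 and 33.7 CPM with JQ1 (log2 fold change -1.03, SE 0.07, adjusted p 6.62e-08) and IFI16, a nuclear DNA sensor, read 193, 176 and 177 CPM in DMSO and 84.8, 85.9 and 67.7 CPM with JQ1 (log2 fold change -1.20, SE 0.08, adjusted p 3.81e-08). In all 4 genes every JQ1 library lay below every DMSO library, where 42.3% of all tested genes had no overlap. JQ1 replicate 3 was the lowest for IFI16 and the highest for OAS3. In bulk RNA, fewer cells that express a gene and less RNA per cell cannot be told apart. The list was also mostly lower in wild-type cells (30 lower and 5 higher of 43, where 16.2% and 16.9% of all tested genes were called), and no member passed the test of the difference between genotypes.

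The 250 bases before the RefSeq starts of the interferon-stimulated genes (GRCh38.p14, first start listed) were searched on both strands. The motif was the core of the interferon-stimulated response element (ISRE), 2 copies of GAAA with any 2 bases between them. Of the 43 tested genes 34 had an entry, and 17 of them (50%) held the motif, against 3.07% of the 27305 promoters in the table. It was in 13 of 24 promoters of members called lower (54.2%), in 4 of 10 not called lower (40%) and in 0 of 16 HOX promoters. The list is of genes that interferon switches on, so its high share follows from how it was made and is no result about JQ1. Whether the shares of lower and other members differ was not tested. A match is a description of the letters in this window and no evidence that a factor binds there. The stretches around the matches are shown for 4 members that were lower with JQ1, with the matches in capitals (IFIT1 holds the motif on the reverse strand). IFITM1 spans chr11:313930-314039, plus strand, OAS3 chr12:112938314-112938473, plus strand, BST2 chr19:17405691-17405790, minus strand and IFIT1 chr10:89392463-89392562, plus strand, all in the sequence before the annotated start. BST2 (tetherin, which holds budding virus at the cell surface) and IFIT1 (which binds viral RNA) were picked after their values were seen: BST2 read 5.23, 4.46 and 4.42 CPM in DMSO and 0.457, 0.365 and 0.855 CPM with JQ1 (-3.02, adjusted p 1.05e-07) and IFIT1 6.96, 5.22 and 6.71 CPM in DMSO and 3.35, 3.04 and 2.98 CPM with JQ1 (-1.01, adjusted p 3.83e-05).
IFITM1: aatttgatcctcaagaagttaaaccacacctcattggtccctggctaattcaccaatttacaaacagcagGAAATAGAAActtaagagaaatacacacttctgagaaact
OAS3: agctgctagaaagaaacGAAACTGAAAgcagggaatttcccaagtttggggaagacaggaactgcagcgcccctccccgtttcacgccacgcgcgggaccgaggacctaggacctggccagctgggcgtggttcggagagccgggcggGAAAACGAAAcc
BST2: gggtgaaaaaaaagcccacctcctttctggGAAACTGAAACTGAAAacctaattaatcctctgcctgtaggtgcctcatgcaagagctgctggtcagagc
IFIT1: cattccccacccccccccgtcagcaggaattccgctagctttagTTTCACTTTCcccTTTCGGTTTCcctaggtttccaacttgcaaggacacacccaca

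**Figure D3:**
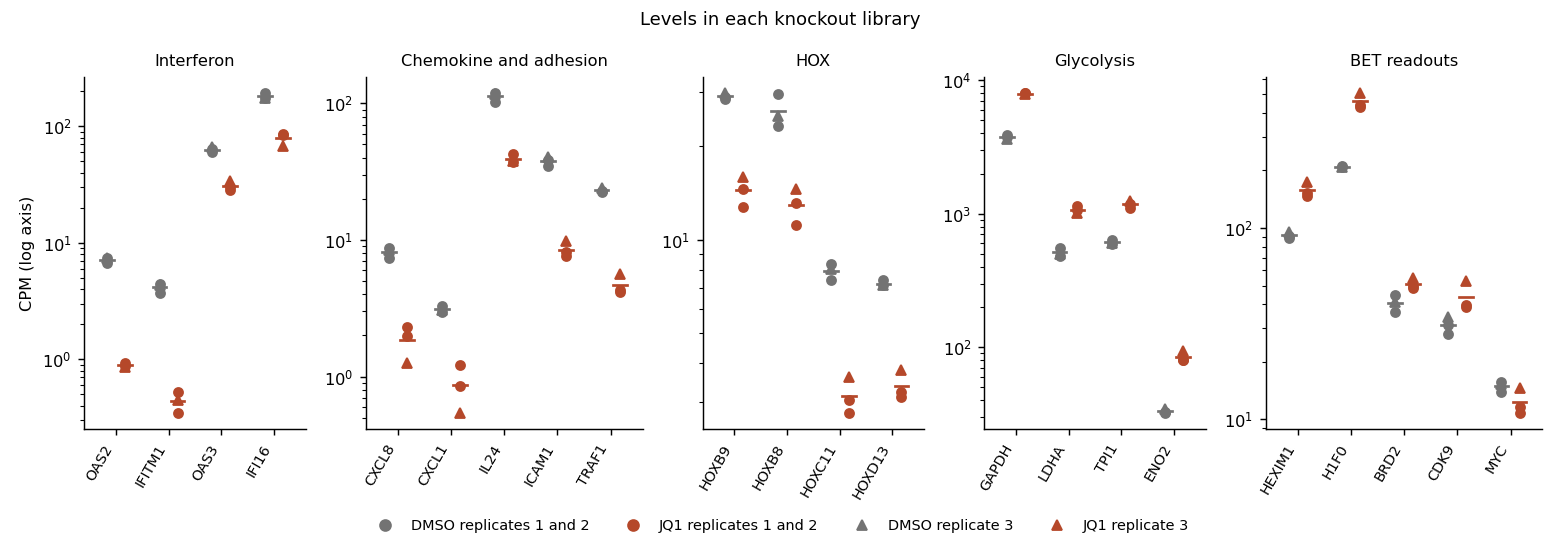
CPM on a log axis (y) of named genes (x) in each knockout library, grey for DMSO and red for JQ1; circles are replicates 1 and 2, triangles replicate 3, and bars the mean of 3. The JQ1 points lie below the DMSO points for the interferon genes, for the chemokine and adhesion genes and for the HOX genes, above them for the glycolysis genes, HEXIM1, H1F0, BRD2 and CDK9, and overlap them for MYC.

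Among secreted inflammatory signals the calls were mostly falls. Of 28 tested chemokines and cytokines 13 were lower and 2 higher (12 and 1 without replicate 3), with a list median of -0.88. Only 7 of the 28 averaged 5 CPM over the knockout libraries, so the median rests mostly on low readings. The higher count was also 1 without any 1 of the DMSO libraries. CXCL8 (interleukin 8), which attracts neutrophils, read 8.79, 7.38 and 8.46 CPM in DMSO and 2.32, 1.99 and 1.27 CPM with JQ1 (log2 fold change -2.16, SE 0.16, adjusted p 1.27e-07). Of the same family, CXCL1 read 2.98, 3.3 and 3.05 CPM in DMSO and 1.22, 0.852 and 0.538 CPM with JQ1 (log2 fold change -1.86, SE 0.23, adjusted p 1.58e-05). Every JQ1 library was below every DMSO library in both, with JQ1 replicate 3 the lowest. IL24, a cytokine first found in differentiating melanoma cells, fell from 119, 103 and 118 CPM to 43, 37.4 and 38.1 CPM (-1.52, adjusted p 1.93e-09), and IL16, a CD4 ligand, fell as well (-3.15, adjusted p 8.67e-06). IL11, a cytokine of the interleukin 6 family, was one of the 2 that rose, from 6.16, 9.17 and 8.11 CPM to 27.4, 26.1 and 36.5 CPM (1.95, adjusted p 1.05e-07), and was among the 10 largest rises of genes picked by size.

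Targets and factors of NF-kappaB were divided, 7 of 23 lower (30.4%) and 4 higher (17.4%) with and without replicate 3. The higher share is near the 16.7% of all tested genes and below the 22.4% of protein-coding genes. The largest changes were falls. ICAM1, the endothelial and tumour cell ligand of leukocyte integrins, read 34.5, 38.6 and 40.2 CPM in DMSO and 7.58, 8.2 and 9.75 CPM with JQ1 (log2 fold change -2.14, SE 0.10, adjusted p 1.26e-09). TRAF1, a signalling adaptor of TNF receptors, read 22.7, 22.4 and 24.1 CPM in DMSO and 4.15, 4.3 and 5.63 CPM with JQ1 (log2 fold change -2.29, SE 0.12, adjusted p 5.46e-09), and TNFAIP2 (-1.49, adjusted p 2.01e-07) and the feedback inhibitor TNFAIP3 (-1.03, adjusted p 0.00024) fell too. In the prostaglandin pathway PTGES, the terminal prostaglandin E synthase, was one of the 10 largest falls, from 24.7, 26.8 and 27 CPM to 2.02, 2.39 and 2.18 CPM (-3.57, adjusted p 3.06e-10). PTGS1 (cyclooxygenase 1; -2.37, adjusted p 6.74e-07) and PLA2G4A, which frees arachidonic acid (-0.74, adjusted p 4.35e-05), were lower. PTGS2 was under 0.5 CPM in every knockout library and did not pass (-0.37, adjusted p 0.528). The prostaglandin and leukotriene list as a whole was divided, with 5 of 16 tested genes higher (31.2%) and 6 lower (37.5%). Without replicate 3 these counts were 4 and 5. Protein-coding genes gave 22.4% and 22.2%.

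Complement genes were lower more often than higher, 8 against 2 of 19 tested, and the same 10 were called without replicate 3. Of the 19, 7 averaged 5 CPM over the knockout libraries. C1R, the first protease of the classical pathway, read 12.5, 11 and 12.8 CPM in DMSO and 1.18, 1.38 and 1.11 CPM with JQ1 (log2 fold change -3.31, SE 0.12, adjusted p 1.42e-10). CFI, which inactivates C3b, fell from 30, 26.3 and 25 CPM to 6.02, 5.28 and 5.54 CPM (-2.27, adjusted p 1.4e-09) and the protease inhibitor A2M from 20.4, 18.5 and 21.7 CPM to 4.38, 4.5 and 3.29 CPM (-2.33, adjusted p 3.6e-09). CD59, the membrane protein that blocks the terminal attack complex, rose from 213, 208 and 221 CPM to 572, 534 and 511 CPM (log2 fold change 1.33, SE 0.05, adjusted p 2.46e-10). The 3 secreted proteins thus read lower and the surface inhibitor higher in every JQ1 library.

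Antigen presentation showed no single direction. The immunoproteasome subunit PSMB8 fell (-0.92, adjusted p 4.74e-06), and 7 of 22 class I genes were higher and 6 lower (7 and 7 without replicate 3). The lower count was 3 without JQ1 replicate 2. With all libraries the class I shares were 31.8% higher and 27.3% lower, beside 22.4% and 22.2% of protein-coding genes. In class II, the master regulator CIITA (0.51, adjusted p 0.00302) and the peptide loader HLA-DMA (0.47, adjusted p 2.3e-05) rose, while HLA-DQA1 fell (-0.70, adjusted p 1.17e-05). Of the checkpoint ligands CD274 (PD-L1) was near 1 CPM and did not pass (-0.57, adjusted p 0.14). CD47, the signal against phagocytosis (0.31, adjusted p 0.000652), and NT5E, which makes adenosine (0.59, adjusted p 3.86e-06), rose, and TNFRSF14 fell (-2.18, adjusted p 5.21e-06).

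HOX genes, the clustered homeobox genes that hold positional identity, fell as a family. Of 39 listed genes 35 were tested, 27 were lower and none higher, and without replicate 3 the same 27 were lower and none higher. Without DMSO replicate 2, JQ1 replicate 1 or JQ1 replicate 2, 1 was higher and 22, 22 and 23 were lower. The median was -0.61 (-0.67 without replicate 3), and in wild-type cells 19 were lower and 3 higher. HOXB9, on chromosome 17, read 28.8, 28.5 and 29.7 CPM in DMSO and 12.8, 14.5 and 16 CPM with JQ1 (log2 fold change -1.004, SE 0.09, adjusted p 1.39e-06), and its neighbour HOXB8 read 23.2, 29.5 and 25.1 CPM in DMSO and 11.2, 13.1 and 14.6 CPM with JQ1 (log2 fold change -1.001, SE 0.12, adjusted p 9.47e-06). HOXC11, on chromosome 12, read 8.34, 7.42 and 8.07 CPM in DMSO and 3.05, 2.76 and 3.61 CPM with JQ1 (log2 fold change -1.33, SE 0.13, adjusted p 2.11e-06), and HOXD13, on chromosome 2, read 7.41, 7.14 and 7.13 CPM in DMSO and 3.24, 3.12 and 3.8 CPM with JQ1 (log2 fold change -1.09, SE 0.14, adjusted p 1.98e-05). In each of the 4 genes the groups did not overlap and JQ1 replicate 3 was the highest of the JQ1 libraries, nearest to DMSO; over the 35 genes its median deviation from its replicates was 0.25. HOX genes of 1 cluster overlap and carry antisense transcripts, so reads may be shared among them.

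Of 67 other patterning factors 23 were lower and 8 higher (26 and 5 without replicate 3; also 5 higher without DMSO replicate 1). SOX6 (-1.33, adjusted p 1.19e-07) and FOXF2 (-1.70, adjusted p 3.37e-06) fell. TBX10, a T-box factor, had the largest rise under the rule for naming genes, from 0.192, 0.378 and 0.175 CPM to 4.26, 4.63 and 6.46 CPM. Among factors of phenotype switching and the neural crest 7 of 25 were higher (28%) and 10 lower (40%), and 5 and 10 without replicate 3. Protein-coding genes gave 22.4% and 22.2%. PRRX1, a mesenchymal homeobox factor, read 191, 165 and 181 CPM in DMSO and 66.8, 63.5 and 56.2 CPM with JQ1 (log2 fold change -1.52, SE 0.07, adjusted p 1.5e-09) and TFAP2B, a neural crest factor, read 271, 302 and 307 CPM in DMSO and 111, 117 and 142 CPM with JQ1 (log2 fold change -1.25, SE 0.08, adjusted p 2.77e-08). The receptor AXL, a marker of the undifferentiated melanoma state, went the other way, from 179, 203 and 213 CPM to 368, 381 and 445 CPM (1.01, adjusted p 2.94e-07), as did VIM (vimentin; 0.63, adjusted p 2.65e-07). ZEB1, a mesenchymal repressor, fell (-0.56, adjusted p 0.0108), with JQ1 replicate 3 at 32.8 CPM against 53.9 and 55.6 in the others; the call was lost without DMSO replicate 1.

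The melanocyte lineage factor MITF did not pass (log2 fold change 0.08, SE 0.08, adjusted p 0.499) and its reading overlapped between groups. SOX10, the upstream neural crest factor, passed with all libraries (0.36, adjusted p 0.019) but not without JQ1 replicate 3 (0.19, adjusted p 0.0669), which read 687 CPM against 477 and 525. The SOX10 call was also lost without DMSO replicate 1, with the 6 knockout libraries alone and with library totals. PAX3 (-0.43, adjusted p 0.000647) and the endothelin receptor EDNRB (-0.45, adjusted p 0.000814) fell. In all 5 of 23 lineage genes were higher (21.7%) and 6 lower (26.1%), near the 22.4% and 22.2% of protein-coding genes. The counts were the same without replicate 3, and the higher count was 3 without DMSO replicate 1. The summed level of the melanoma markers ran from 1308 to 1567 CPM in DMSO and from 1598 to 2285 CPM with JQ1. Over the 9 tested markers JQ1 replicate 3 had a median deviation of 0.46 from its replicates. Of these 9, 4 were higher and 1 lower, 2 and 1 without replicate 3, and 1 and 1 with library totals. Whether the marker level moved any other result was not tested.

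Adhesion genes of the cadherin superfamily fell broadly. Of 85 tested cadherin and protocadherin genes 49 were lower and 8 higher (46 and 8 without replicate 3, with 42 of the lower calls shared), and the median was -0.45. PCDH15, a protocadherin of the hair cell tip link, read 15.6, 13.6 and 14.5 CPM in DMSO and 1.33, 1.14 and 1.33 CPM with JQ1 (log2 fold change -3.52, SE 0.17, adjusted p 1.4e-09). DCHS1, a giant cadherin of planar polarity, read 12.2, 15.2 and 14.8 CPM in DMSO and 3.35, 3.25 and 4.62 CPM with JQ1 (log2 fold change -1.90, SE 0.14, adjusted p 1.08e-07), and PCDHB6 of the clustered protocadherins fell (-1.13, adjusted p 1.04e-07). FAT1, a giant cadherin related to the partner of DCHS1, rose from 492, 493 and 519 CPM to 788, 828 and 784 CPM (0.67, adjusted p 3.75e-08).

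Integrins, the receptors for matrix, exchanged members: 7 of 20 rose and 8 fell, and the same 15 were called without replicate 3. ITGA10, a collagen receptor chain, was among the 10 largest falls and read 35.5, 39 and 40.1 CPM in DMSO and 3.12, 3.53 and 3.17 CPM with JQ1 (log2 fold change -3.55, SE 0.12, adjusted p 6.44e-11). ITGA9 read 129, 135 and 129.9 CPM in DMSO and 31.7, 34 and 30.4 CPM with JQ1 (log2 fold change -2.04, SE 0.07, adjusted p 3.87e-11) and ITGA1 fell (-0.86, adjusted p 8.31e-07). ITGB3, the beta chain of the vitronectin receptor and a marker of melanoma progression, rose from 567, 600.3 and 637 CPM to 1181, 1182 and 1374 CPM (log2 fold change 1.05, SE 0.06, adjusted p 1.38e-08).

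The matrix list was lower in 19 of 40 genes and higher in 10, and collagens in 12 of 34 and 6. Without replicate 3 these counts were 20 and 9, and 14 and 6. For the matrix list the shares were 25% higher and 47.5% lower, beside 22.4% and 22.2% of protein-coding genes. The collagen share of 17.6% higher is near the 16.7% of all tested genes and below that of protein-coding genes. EMILIN1, an elastic fibre glycoprotein, read 81.8, 95.6 and 90.2 CPM in DMSO and 11.8, 12.7 and 16.6 CPM with JQ1 (log2 fold change -2.70, SE 0.14, adjusted p 2.28e-09), and fibronectin (FN1) fell (-1.27, adjusted p 3.77e-08). Collagens COL12A1 (-1.26, adjusted p 1.04e-09) and COL5A2 (-0.90, adjusted p 2.36e-08) fell, with their chaperone SERPINH1 (-0.92, adjusted p 1.11e-06). Against these TNC (tenascin C) read 1414, 1557 and 1587 CPM in DMSO and 3373, 3444 and 4100.0 CPM with JQ1 (log2 fold change 1.26, SE 0.07, adjusted p 6.67e-09), and THBS1 (thrombospondin 1; 1.15, adjusted p 1.17e-09) and the lysyl oxidase LOXL2 (1.23, adjusted p 3.77e-08) rose. TIMP1 rose (1.04, adjusted p 7.31e-08) and TIMP3 fell (-0.84, adjusted p 2.25e-07), both inhibitors of metalloproteinases. The plasminogen activator PLAT (0.78, adjusted p 1.66e-08) and the protease inhibitor SERPINE2 (0.43, adjusted p 4.83e-06) were higher. Their list, plasminogen activators and serpins, was divided, with 6 of 21 higher (28.6%) and 5 lower (23.8%). Without replicate 3 these counts were 7 and 5.

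Epithelial adhesion genes were also measured. Of 21 tested keratin and desmosome genes 12 were lower and 2 higher (13 and 1 without replicate 3, with none of the higher calls shared). None was higher without DMSO replicate 1 or 2. Of the 21, 8 averaged 5 CPM over the knockout libraries. KRT80 read 14.3, 14 and 15.2 CPM in DMSO and 2.93, 3.53 and 3.07 CPM with JQ1 (log2 fold change -2.19, SE 0.10, adjusted p 8.59e-10), the plakophilin PKP3 fell (-1.63, adjusted p 8.34e-07), and LAD1 (ladinin, of basement membrane anchoring) was among the largest falls (-4.57, adjusted p 5.26e-09). Genes of contact guidance moved each way, 17 of 58 higher and 15 lower (15 and 16 without replicate 3). These are 29.3% and 25.9%, beside 22.4% and 22.2% of protein-coding genes. JAG1, a Notch ligand, read 14.6, 14.2 and 14.2 CPM in DMSO and 47.3, 48 and 50 CPM with JQ1 (log2 fold change 1.76, SE 0.07, adjusted p 2.4e-10) and the Notch target HES1 rose (1.06, adjusted p 3.73e-07). The Notch list as a whole had no single direction, with 5 of 23 tested genes higher (21.7%) and 4 lower (17.4%). Without replicate 3 these counts were 4 and 5. Ephrin B2 (EFNB2) rose (1.33, adjusted p 9.15e-09) and SEMA6B fell (-1.73, adjusted p 1.19e-07). Exchange factors for the small GTPases that steer the cytoskeleton were lower in 19 of 46 and higher in 10 (20 and 10 without replicate 3); VAV3 (-3.92, adjusted p 3.44e-09), ELMO1 (-1.06, adjusted p 6.67e-09) and FGD4 (-1.53, adjusted p 1.99e-08) fell.

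Like replacement histone variants (81.8% higher), glycolysis and hypoxia genes mostly rose. Of 38 tested 30 were higher and 4 lower, 78.9% higher beside 16.7% of all tested genes, with a median of 0.58. Without replicate 3 there were also 30 and 4, with 29 of the higher calls shared, and with library totals 28 and 5. The 4 lower calls were 2 when DMSO replicate 1 or 3, or JQ1 replicate 1 or 2, was left out. GAPDH, a glycolytic enzyme often used as a reference gene, read 3860.0, 3787 and 3639 CPM in DMSO and 8006, 7979 and 7832 CPM with JQ1 (log2 fold change 1.08, SE 0.04, adjusted p 6.44e-11). LDHA, which turns pyruvate into lactate, read 558, 486 and 503 CPM in DMSO and 1142, 1066 and 1020.0 CPM with JQ1 (log2 fold change 1.06, SE 0.06, adjusted p 1.19e-08). TPI1 read 640.3, 594 and 606 CPM in DMSO and 1175, 1111 and 1249 CPM with JQ1 (log2 fold change 0.94, SE 0.05, adjusted p 6.67e-09) and ENO2 read 32, 33 and 34.3 CPM in DMSO and 80.9, 81 and 93.3 CPM with JQ1 (log2 fold change 1.36, SE 0.07, adjusted p 2.05e-09). In these 4 genes every JQ1 library was well above every DMSO library and replicate 3 lay with the others. The hypoxia factor HIF1A (0.32, adjusted p 0.00639; not past the threshold with library totals) and its target VEGFA (0.91, adjusted p 1.53e-06) rose less. ANGPTL4, a lipoprotein lipase inhibitor also known as a hypoxia target, had the second largest rise under that rule, from 0.994, 1.54 and 1.61 CPM to 16.8, 16.8 and 23.3 CPM.

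The hypoxia response element core ACGTG was searched in the same way; CACGTG holds it on both strands. It was in 14 of the 34 promoters of this list that had an entry (41.2%) and in 13 of the 26 called higher, against 18.7% of all 27305 promoters. It was also in 11 of 16 HOX promoters (68.8%), none of whose genes rose, and in 9 of 34 interferon promoters (26.5%). The glycolysis and hypoxia list holds known hypoxia genes, so its share may follow in part from how it was made. The stretches for 3 of the named enzymes are shown with matches in capitals: LDHA (chr11:18394363-18394502, plus strand), GAPDH (chr12:6535124-6535223, plus strand) and ENO2 (chr12:6914420-6914499, plus strand), again before the first listed start.
LDHA: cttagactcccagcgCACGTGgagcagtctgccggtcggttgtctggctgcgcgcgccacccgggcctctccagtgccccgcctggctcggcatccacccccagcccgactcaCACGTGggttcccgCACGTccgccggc
GAPDH: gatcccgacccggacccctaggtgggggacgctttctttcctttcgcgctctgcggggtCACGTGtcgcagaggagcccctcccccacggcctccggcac
ENO2: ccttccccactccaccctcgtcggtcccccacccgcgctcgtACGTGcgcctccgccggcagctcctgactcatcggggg

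Genes of protein folding rose with them, 25 of 44 heat shock and endoplasmic reticulum chaperones higher and 5 lower (27 and 5 without replicate 3). The count of higher genes was 15 with library totals. P4HB, the protein disulfide isomerase, read 408, 404 and 412 CPM in DMSO and 789, 766 and 839.7 CPM with JQ1 (log2 fold change 0.97, SE 0.05, adjusted p 2.8e-09). EDEM1, which marks misfolded proteins for degradation (0.53, adjusted p 4.84e-07), the HSP40 gene DNAJB1 (0.57, adjusted p 6.42e-07) and CREB3L2, a membrane-bound factor of secretory capacity (0.82, adjusted p 4.41e-07), rose. Of 77 nuclear genes of oxidative phosphorylation 30 were higher, by smaller steps, 4 lower and 43 not called (35 and 3 without replicate 3; 2 lower without DMSO replicate 1 or 2), with a median of 0.13. With library totals 22 were higher and 10 lower. The complex I subunits NDUFB2 (0.88, adjusted p 8.22e-08) and NDUFA2 (0.62, adjusted p 2.17e-06) and the complex III subunit UQCRQ (0.50, adjusted p 3.49e-06) rose.

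Lysosome and autophagy genes followed, 28 of 62 higher and 8 lower (27 and 8 without replicate 3; the lower count was 5 without DMSO replicate 1), and 19 and 10 with library totals. The protease CTSL read 49.9, 50.4 and 47 CPM in DMSO and 94.1, 95.8 and 103 CPM with JQ1 (log2 fold change 0.99, SE 0.06, adjusted p 6.67e-09), and the proton pump subunit ATP6V0A1 (0.75, adjusted p 1.81e-06), the lysosomal sulfatase IDS (0.64, adjusted p 1.35e-06) and the autophagy receptor SQSTM1 (0.56, adjusted p 2.3e-06) rose. Cathepsin K (CTSK) fell (-1.38, adjusted p 2.26e-06). Cathepsin D (CTSD) passed only narrowly (0.25, adjusted p 0.0467) and not without JQ1 replicate 3 (0.13, adjusted p 0.192). Its call was also lost without DMSO replicate 1 or 2, with library totals and with an offset for GC content.

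Iron and redox genes moved each way. FTH1, the ferritin heavy chain, read 157, 168 and 174 CPM in DMSO and 372, 384 and 353 CPM with JQ1 (log2 fold change 1.15, SE 0.06, adjusted p 1.5e-09), FTL, the light chain, rose too (0.61, adjusted p 1.59e-07). SLC7A11, the cystine importer that protects cells from ferroptosis, fell from 73.6, 70.8 and 70.3 CPM to 12.5, 14.7 and 9.62 CPM (log2 fold change -2.55, SE 0.11, adjusted p 6.4e-10). HMOX1, a textbook NRF2 target, did not pass (-0.07, adjusted p 0.757). Over the list 14 of 31 were higher and 6 lower (15 and 7 without replicate 3). The list of ATF4 and the amino acid response had 10 of 35 higher (28.6%) and 8 lower (22.9%). Protein-coding genes gave 22.4% and 22.2%. Counts for the ATF4 list were 11 and 10 without replicate 3, and 9 and 11 with library totals. In the amino acid response ASNS (0.75, adjusted p 5.19e-07) and DDIT4, an mTOR inhibitor (1.01, adjusted p 1.7e-08), rose, whereas ATF4 mRNA read 204, 202 and 216 CPM in DMSO and 182, 175 and 202 CPM with JQ1 and did not pass (-0.15, adjusted p 0.0974) unless replicate 3 was left out (-0.21, adjusted p 0.0152).

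Of 24 cholesterol synthesis genes 9 were lower and 2 higher (8 and 3 without replicate 3). Of 17 fatty acid synthesis genes 7 were lower and 2 higher (8 and 1 without replicate 3; also 1 higher without DMSO replicate 1). The sterol regulator SREBF2 (-0.57, adjusted p 4.03e-05) and the sterol carrier STARD4 (-0.996, adjusted p 5.53e-05) fell, as did the elongase ELOVL6 (-0.83, adjusted p 7.69e-07), the desaturase FADS1 (-0.66, adjusted p 4.4e-07) and SCD (-0.29, adjusted p 0.000161). FASN, the fatty acid synthase, read 422, 589.7 and 568 CPM in DMSO and 374, 408 and 624 CPM with JQ1; it did not pass with all libraries (-0.17, adjusted p 0.462) and passed without replicate 3 (-0.43, adjusted p 0.00863).

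Cell cycle genes are given by phase; differences between phases were not tested. In G1, 7 of 15 cyclins and CDK inhibitors were higher and 3 lower (8 and 3 without replicate 3). There, cyclin D1 (CCND1) read 260.2, 274 and 278 CPM in DMSO and 530.0, 520.3 and 568 CPM with JQ1 (log2 fold change 0.99, SE 0.05, adjusted p 4.26e-09) and its kinase CDK6 read 367, 344 and 325 CPM in DMSO and 185, 192 and 161 CPM with JQ1 (log2 fold change -0.95, SE 0.07, adjusted p 1.31e-07). The CDK inhibitor CDKN1A (p21) read 82.4, 82 and 87.8 CPM in DMSO and 166, 165 and 186 CPM with JQ1 (log2 fold change 1.04, SE 0.06, adjusted p 1.3e-08), and CDKN1C rose too (0.55, adjusted p 0.000622). The cyclin and its kinase thus moved in opposite directions in every library, and an inhibitor rose beside the cyclin. CDK2 (0.53, adjusted p 1.26e-06), CCNE2 (0.47, adjusted p 0.00218) and E2F1 (0.65, adjusted p 0.000104) were higher. Of 54 genes of DNA replication and S phase 23 were higher and 8 lower (19 and 8 without replicate 3), and 16 and 11 with library totals. RRM2, which makes deoxynucleotides (0.61, adjusted p 5.09e-07), PCNA, the replication clamp (0.52, adjusted p 3.42e-06), TK1 (0.63, adjusted p 1.79e-06) and the histone chaperone ASF1B (0.74, adjusted p 4.87e-06) rose.

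Beside 22.2% lower and 22.4% higher of protein-coding genes, 16 of 55 genes of G2 and mitosis were lower (29.1%) and 5 higher (9.09%). Both counts were the same without replicate 3, and 13 of the lower calls were shared. The median was -0.12, and -0.06 without replicate 3; the higher count was 1 without DMSO replicate 1 and 3 without DMSO replicate 2, DMSO replicate 3 or JQ1 replicate 1. KIF14, a cytokinesis motor, read 149.8, 128 and 136 CPM in DMSO and 79.5, 80.7 and 55.7 CPM with JQ1 (log2 fold change -0.94, SE 0.11, adjusted p 9.2e-06), and the checkpoint kinase BUB1B (-0.43, adjusted p 0.00021) and the proliferation marker MKI67 (-0.35, adjusted p 0.000522) fell. Cyclin B1 (CCNB1) read 72.3, 67.4 and 72.3 CPM in DMSO and 78.3, 74.6 and 52.7 CPM with JQ1 and did not pass (-0.05, adjusted p 0.786); JQ1 replicate 3 was below DMSO and the other pair above it, and the difference without replicate 3 was 0.12. The median deviation of replicate 3 from its replicates over this list was -0.19.

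Among p53 targets 8 of 31 were higher and 8 lower (10 and 9 without replicate 3). These shares, 25.8% each way, lie near the 22.4% and 22.2% of protein-coding genes. TP53I3 rose (0.70, adjusted p 3.75e-06) with CDKN1A, while MDM2, the p53 ubiquitin ligase, fell (-0.45, adjusted p 1.31e-05). In the BCL2 family the antiapoptotic MCL1 (0.51, adjusted p 9.96e-07) and the proapoptotic BCL2L11 (BIM; 0.75, adjusted p 8.84e-05) were the 2 that rose, and 5 of 20 fell, among them the caspase-8 inhibitor CFLAR (-0.50, adjusted p 0.000532). Both counts were the same without replicate 3, and the 25% lower is near the 22.2% of protein-coding genes. BCL2 itself did not pass (-0.16, adjusted p 0.319). Cytosolic ribosomal protein genes were lower in 24 of 82 and higher in 6, by small amounts (median -0.08). That count was 12 lower without DMSO replicate 1, 10 higher and 23 lower without JQ1 replicate 3 and 45 lower with library totals.

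In growth factor signalling the largest fall under the naming rule was HGF, the ligand of the MET receptor, from 18.2, 21.2 and 15.1 CPM to 0.419, 0.365 and 0.443 CPM; MET did not pass with all libraries (0.09, adjusted p 0.397) and did without JQ1 replicate 3 (0.20, adjusted p 0.00553). The collagen receptor kinase DDR2 fell from 242, 217 and 227 CPM to 113, 118 and 97.2 CPM (-1.06, adjusted p 2.87e-08). TGFA, an EGF receptor ligand, rose (0.68, adjusted p 2.86e-07). Of 54 receptor tyrosine kinases and ligands 14 were higher and 18 lower (16 and 18 without replicate 3). These are 25.9% and 33.3%, beside 22.4% and 22.2% of protein-coding genes.

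Feedback genes of the ERK pathway, which BRAF drives in these cells, did not move as one: 10 of 25 were higher and 3 lower, 10 and 6 without replicate 3, and 7 and 8 with library totals; the lower count was also 6 without DMSO replicate 1. DUSP6 (0.30, adjusted p 0.00023) and DUSP4 (0.94, adjusted p 1.08e-07), phosphatases of ERK, rose. HMGA2 fell (-0.63, adjusted p 6.92e-06). SPRY4 did not pass (-0.19, adjusted p 0.0615) but was lower without replicate 3 (-0.27, adjusted p 0.00445), and ETV5 passed narrowly (0.21, adjusted p 0.0473) and not without it (0.14, adjusted p 0.14). The ETV5 call was also lost without DMSO replicate 1 or 2, without JQ1 replicate 2 and with library totals. Immediate-early and AP-1 genes rose in 16 of 30 and fell in 2, and in 12 and 4 without replicate 3, whose median deviation over this list was 0.36. JUN read 3.3, 4.84 and 4.04 CPM in DMSO and 11.4, 10.8 and 13 CPM with JQ1 (log2 fold change 1.53, SE 0.16, adjusted p 2.89e-06), FOS read 10.5, 10.9 and 11.6 CPM in DMSO and 20.7, 20.2 and 24.3 CPM with JQ1 (log2 fold change 0.98, SE 0.09, adjusted p 7.98e-07) and MAF read 54.7, 55.5 and 60.5 CPM in DMSO and 107, 107 and 133 CPM with JQ1 (log2 fold change 1.03, SE 0.08, adjusted p 2.05e-07). These 3 genes did not overlap between groups in replicates 1 and 2 either. NR4A2, an orphan receptor of the same class of genes, fell (-0.89, adjusted p 5.48e-07).

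Around p38 and MK2, HSPB1, whose protein is the best known MK2 substrate, read 101, 114 and 113 CPM in DMSO and 52.5, 51.3 and 72.4 CPM with JQ1 (log2 fold change -0.89, SE 0.11, adjusted p 1.32e-05) and MAPKAPK3, the gene of the close relative MK3, read 29.2, 29.2 and 31.2 CPM in DMSO and 15.9, 15.2 and 17.2 CPM with JQ1 (log2 fold change -0.89, SE 0.09, adjusted p 1.78e-06). Both were lower in every JQ1 library. MAPK14, the p38 alpha gene, did not pass (0.12, adjusted p 0.193). Over the p38 and MK2 list 4 of 21 were higher and 6 lower (3 and 6 without replicate 3), or 19% and 28.6%. All tested genes gave 16.7% and 17.8%, and protein-coding genes 22.4% and 22.2%. Neither HSPB1 (adjusted p 0.391) nor MAPKAPK3 (0.28) passed the test of a difference between genotypes.

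In TGF-beta and BMP signalling 18 of 49 were higher (36.7%) and 14 lower (28.6%), beside 22.4% and 22.2% of protein-coding genes. Without replicate 3 the list had 19 and 16, and with library totals 13 and 17. FST (follistatin), which traps activins, read 166, 156 and 166 CPM in DMSO and 20.7, 19.6 and 21.5 CPM with JQ1 (log2 fold change -2.98, SE 0.08, adjusted p 4.87e-12). ID1 (0.77, adjusted p 1.5e-05) and ID2 (1.88, adjusted p 3.24e-07), targets of BMP receptors, rose, as did the ligand GDF11 (0.80, adjusted p 8.5e-08) and the inhibitor SMAD7 (0.53, adjusted p 0.0124; not without DMSO replicate 1). Targets of YAP and TEAD split, 8 of 29 higher and 10 lower (8 and 11 without replicate 3). These are 27.6% and 34.5%, beside 22.4% and 22.2% of protein-coding genes. CTGF rose (1.31, adjusted p 1.28e-07) and CYR61, its relative, did not pass (0.18, adjusted p 0.122); IGFBP3 (-1.77, adjusted p 2.98e-11), MYOF (-1.22, adjusted p 5.4e-10) and the factor TEAD2 (-1.46, adjusted p 1.62e-09) fell. WNT9A rose from 0.192, 0.515 and 0.246 CPM to 3.27, 4.71 and 4.78 CPM (3.74, adjusted p 1.26e-07) and WNT10B fell (-1.95, adjusted p 5.01e-07). AXIN2, the usual readout of canonical WNT signalling, was under 0.5 CPM. It passed (-1.66, adjusted p 0.0347) but not without JQ1 replicate 3 (adjusted p 0.124), nor without JQ1 replicate 1 or 2 or DMSO replicate 2 or 3. For cyclic AMP, adenylyl cyclase ADCY7 (-2.29, adjusted p 6.44e-11) and the phosphodiesterase PDE3A (-2.12, adjusted p 6.38e-10) both fell.

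The naming rule asked for 5 CPM on average in either group, no overlap of replicates and a call that held without JQ1 replicate 3. Its 10 largest rises included TBX10 (4.35), ANGPTL4 (3.78), UCN2, a stress peptide of the CRF family (2.30), EFR3B (2.15), ENC1 (2.03), IL11, ABCA7 (1.92), PQLC3 (1.90) and the histone gene HIST2H4B (1.88). ENC1 read 18.8, 17.1 and 16.9 CPM in DMSO and 69.7, 73.2 and 73.2 CPM with JQ1, the rise with the smallest adjusted p of these (2.98e-11). Its 10 largest falls were HGF (-5.45), LAD1, LINC00326 (-4.28), the ATP receptor P2RX5 (-4.18), VAV3, the kinesin KIF1A (-3.91), PTGES, ITGA10, PCDH15 and the dynein DNAH9 (-3.50). S100A6, the calcium-binding protein, was not among them but rose at a high level, from 712, 689.5 and 678 CPM to 1569, 1445 and 1417 CPM (1.09, adjusted p 1.72e-09).

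**Figure D4:**
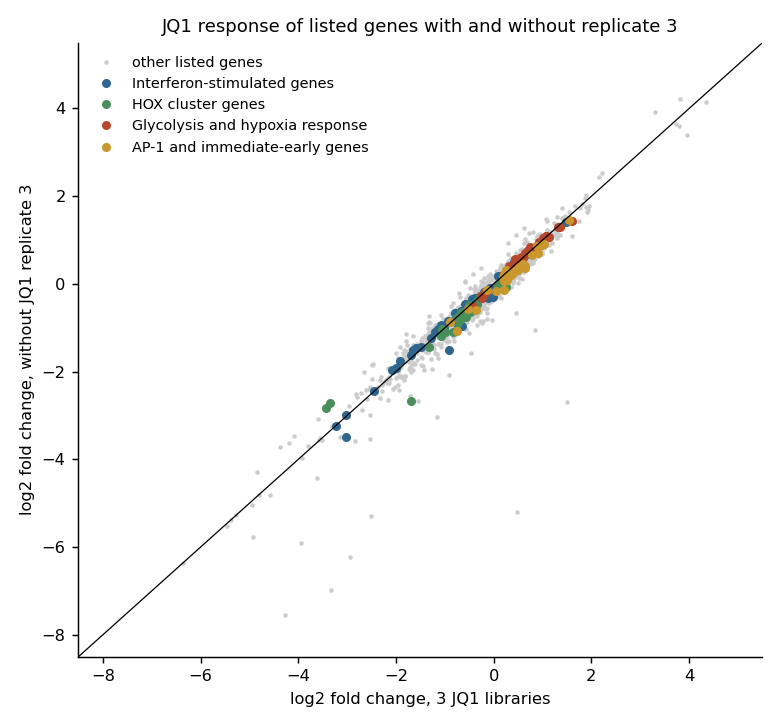
log2 fold change of each listed gene with all 3 JQ1 libraries (x axis) against the same without JQ1 replicate 3 (y axis), in knockout cells; colours mark 4 lists and the line is equality. Most points of the coloured lists lie near the line, with many AP-1 and immediate-early genes just below it, and a few listed genes lie far from it.

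Leaving out JQ1 replicate 3 moved few called genes far. The 5 called genes with at least 5 CPM whose log2 fold change moved most were HMGN2P5, a pseudogene (2.12 to 0.47), KIF1A (-3.91 to -4.85), AC004943.2 (0.95 to 0.15), AC068234.1 (-1.86 to -2.49) and CT45A7, of a near-identical family (-1.14 to -1.69). HMGN2P5 read 2.05, 0.961 and 0.562 CPM in DMSO and 1.68, 1.66 and 12.1 CPM with JQ1, and only JQ1 replicate 3 lay above the DMSO range; without it neither HMGN2P5 (adjusted p 0.446) nor AC004943.2 (0.504) passed. Of the called genes that moved by at least 1 on the log2 scale, 1422 of 1609 (88.4%) were also called without it. A GC correction with all libraries kept, chosen after the data were seen, called 8730 genes (40.2%: 19.8% higher and 20.4% lower) and kept 96% of the 7472 calls. It gave 33 lower and 6 higher interferon-stimulated genes, 29 lower and 2 higher HOX genes and 31 higher and 5 lower glycolysis and hypoxia genes.

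Whether the knockout response differed from that of wild-type cells was tested by the interaction. It passed for 29 genes (0.134% of those tested: 7, or 0.0323%, with a higher value in the knockout and 22, or 0.101%, with a lower one), and for 88 without JQ1 replicate 3, of which 28 were among the 29. It was 8 to 19 without any 1 of the 3 knockout DMSO or the 6 wild-type libraries. The 27 of them with at least 1 CPM are shown. The largest difference was in VAV3, an exchange factor for RAC, at -3.92 (SE 0.21) in knockout and -1.87 (SE 0.21) in wild type (adjusted p 0.0182). PCDH15 (-3.52 against -1.71; adjusted p 0.00838), the microfibril protein MFAP2 (-2.67 against -1.37; 0.00838), KRT80 (-2.19 against -1.21; 0.00838) and ICAM1 (-2.14 against -1.21; 0.0149) also fell further in the knockout. STRA6, the retinol transporter, fell in the knockout (-1.14) and read -0.03 in wild type (0.00838), and SLC7A11 fell by 2.55 against 1.62 on the log2 scale (0.0208). FST went the other way and fell further in wild type (-3.84) than in knockout (-2.98; adjusted p 0.00838).

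**Figure D5:**
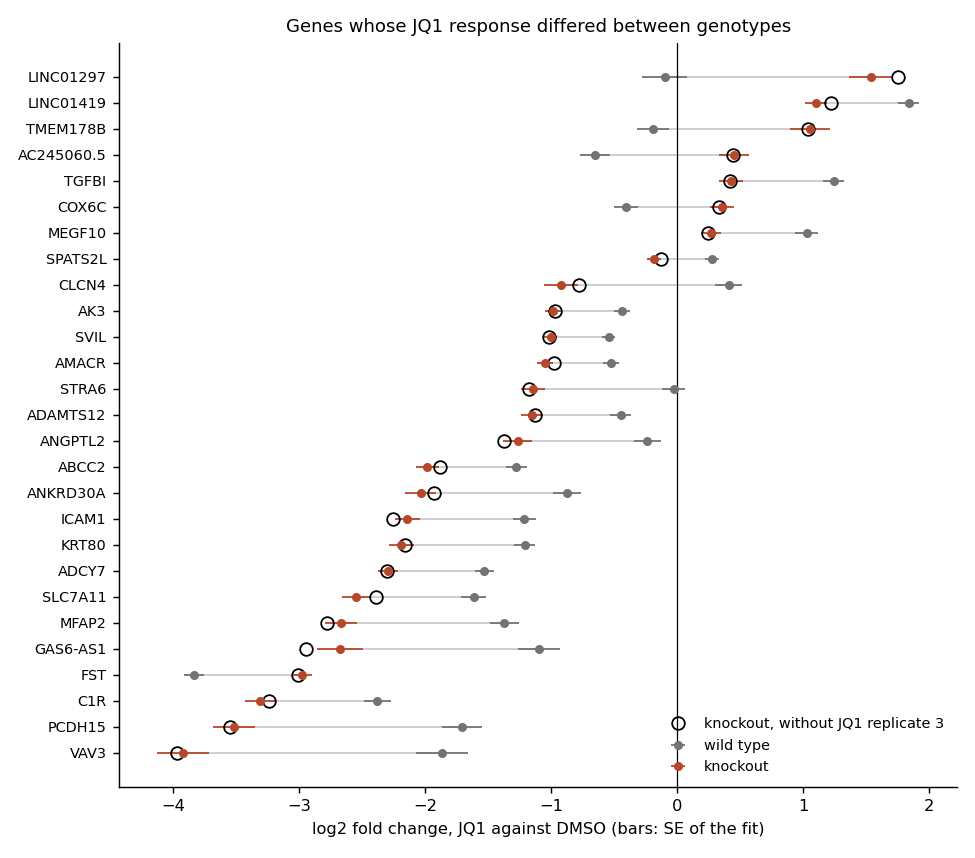
log2 fold change with JQ1 (x axis) of the 27 genes with at least 1 CPM whose response differed between genotypes, red for knockout and grey for wild type with bars for the SE of the fit; black rings give the knockout value without JQ1 replicate 3. The rings lie near the red points, and most genes that fell did so further in the knockout.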

How the data were processed

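RNA of A375 cells was depleted of ribosomal RNA and made into strand-marked libraries, per the labels' protocols. Per the submitters' processing notes, Trim Galore, cutadapt, FastQC, MultiQC, kallisto and DESeq2 were used, with the build GRCh38.p10; versions and the use of strand in counting are not given in the sources used here. A table of estimated counts by gene symbol was deposited by the authors; it was rounded to whole numbers here, with a deposited table of normalized signal that was used only in an alternative. The test planned for whole counts was kept for the rounded estimated counts.

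All 12 libraries entered one edgeR 4.0.16 fit (R 4.3.3; limma 3.58.1 and DESeq2 1.42.0 for alternatives) with a term for each of the 4 groups, TMM scaling and edgeR's low-count filter, which left 21698 genes. The quasi-likelihood test was adjusted over all of them by Benjamini-Hochberg at 0.05. Each SE was taken as the size of the fitted change over the root of its F statistic. The scripts were tested on simulated data.

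The members and gene lists were chosen with earlier results of these data known. The text names fixed genes, the 10 largest rises and falls (at least 5 CPM in a group, no overlap of replicates, held without JQ1 replicate 3), up to 4 genes with the smallest p in each list, called genes of the interaction (at least 1 CPM) and the 5 that moved most without JQ1 replicate 3. Of 66 fixed genes 10 are not described, and some results are not reported here. GC content came from the longest GENCODE 29 transcript of each symbol and was found for 97.7% of tested genes. An alternative with GC offsets for each library (smoothing spline, 5 degrees of freedom) was chosen after seeing the data and would also remove a drug effect that follows GC.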

Additional observations from a re-analysis of the deposited data

Results flagged for a closer look

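The JQ1 response of 27 genes with at least 1 CPM differed between knockout and wild-type cells by edgeR's interaction test (adjusted p under the threshold), which is why they are listed; the values are the knockout minus the wild-type log2 fold change. The difference was -2.056 for the exchange factor VAV3 and -0.9775 for the keratin KRT80. For proteins of the cell surface and matrix it was -1.807 for PCDH15, -1.299 for MFAP2, -0.9302 for ICAM1, -0.8143 for TGFBI, -0.7604 for MEGF10 and -0.7046 for ADAMTS12. TGFBI, a matrix protein induced by TGF-beta, rose in both genotypes, by 0.43 in knockout and 1.24 in wild type. In genes of secreted and signalling proteins it was -1.031 for ANGPTL2, -0.9295 for C1R, -0.7626 for ADCY7 and 0.8603 for FST.

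For transporters and channels the difference was -1.33 for CLCN4, -1.114 for STRA6, -0.9334 for SLC7A11 and -0.7064 for ABCC2. CLCN4, a chloride and proton exchanger, fell in knockout (-0.92) and read 0.41 in wild type. For enzymes and mitochondrial genes it was 0.7634 for COX6C, -0.5461 for AK3 and -0.5189 for AMACR, and for the cytoskeletal gene SVIL -0.4606. COX6C, a subunit of cytochrome c oxidase, rose in knockout (0.36) and read -0.41 in wild type; its call in knockout was lost with library totals. The remaining protein-coding genes gave 1.241 for TMEM178B, -1.163 for ANKRD30A and -0.4627 for SPATS2L. The RNAs without a known protein gave 1.638 for LINC01297, -1.579 for GAS6-AS1, 1.099 for AC245060.5 and -0.7368 for LINC01419. GAS6-AS1 is antisense to GAS6, and whether reads were assigned by strand is not stated.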

How the results depend on the processing

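The count of genes called in knockout cells ran from 6286 to 7481 when 1 library was left out, and was 5715 with the 6 knockout libraries alone, 6736 with 5 of them (without JQ1 replicate 3) and 5120 at an adjusted p of 0.01. With library totals the higher calls numbered 2409. The interaction count ran from 8 to 88 when 1 library was left out, and was 130 with DESeq2, 62 with limma voom, 236 without a low-count filter, 141 with GC offsets and 6 at an adjusted p of 0.01; the cause was not tested. With the replicate number as a block 7136 genes were called in knockout and 21 in the interaction. Same-numbered knockout libraries deviated together with r of 0.079, -0.046 and 0.06, so the numbers were not taken to pair samples. Over 213 named genes and all alternatives 106 values of 13 genes lost the call, 38 of 8 genes gained it and 16 of 5 genes, none called with all libraries, changed sign. BRD3 was -0.0969 with library totals, -0.0695 with totals without 4 abundant RNAs, -0.0419 with limma voom, -0.0687 with 5 knockout libraries alone, -0.0357 with GC offsets and -0.0668 to 0.0985 leaving out 1 library. CCNB1 was 0.0583 with limma voom, 0.113 with 5 libraries, 0.00358 with GC offsets and -0.152 to 0.116 leaving out 1. MITF was -0.0335 with library totals, -0.00829 with totals without the 4 RNAs and -0.00365 to 0.15 leaving out 1. MET was -0.0191 with library totals, and HMOX1 ran from -0.213 to 0.017 leaving out 1.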

Other observations

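Ion channels fell more often than they rose: of 74 tested potassium, sodium and calcium channel subunits 26 were lower and 5 higher, and 21 and 5 without JQ1 replicate 3, all of them among the same calls. Of the 74, 16 averaged 5 CPM over the knockout libraries. The S100 genes, which encode small calcium-binding proteins, had 6 of 12 higher and 1 lower, with and without JQ1 replicate 3 (2 lower without JQ1 replicate 2). Zinc finger genes (ZNF) were called at 11.4% higher and 17.9% lower of 481 tested, both below the 22.4% and 22.2% of protein-coding genes. Solute carriers were called at 23.9% higher and 19.7% lower of 234 (56 and 46 genes), near those shares. With library totals 40 solute carriers were higher and 60 lower. Genes of ribosome biogenesis and RNA polymerase I were lower in 17 of 47 and higher in 5; the higher count was 2 or 3 when any knockout library other than JQ1 replicate 3 was left out, and with library totals 26 were lower and 2 higher.

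By GENCODE gene type, 12.8% of 1940 long intergenic noncoding RNAs were lower and 5% higher, both below the 17.8% and 16.7% of all tested genes. Protein-coding genes were balanced at 22.4% higher and 22.2% lower of 14152. Small nuclear RNA genes had 8 of 58 higher and none lower, 6 without JQ1 replicate 3, and small nucleolar RNA genes 14 of 119 higher and 2 lower; these shares, 13.8% and 11.8% higher, lie below the 16.7% of all tested genes. Mitochondrially encoded mRNAs had 4 of 13 higher and none lower; the count was 2 without DMSO replicate 1 or JQ1 replicate 3 and 7 without JQ1 replicate 1.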
